A study of Mus musculus with 18 samples.

Results

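The 9 genes described here mark fibroblasts and fibroblast-like progenitor cells of the adventitia, the outer coat of an artery: Dpt, Pi16, Cd34, Ly6a, Ly6c1, Gsn, Clec3b, Serpinf1 and Scara5. They were chosen by their symbols, as rows of a table of 35655 genes, and all 9 were found. All 9 also passed the filter on low counts, which left 10312 genes for testing. Their values were followed in the mouse carotid artery before and after wire injury, in which a wire passed through the vessel strips its inner lining.

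RNA was read by MACE, a method that sequences 1 fragment at the 3′ end of each polyadenylated transcript, in 18 libraries. There were 4 libraries of day 0, labelled pre-injury, 4 of day 7, 3 of day 14, 4 of day 21 and 3 of day 28 after injury. All mice were labelled WT and of the strain C57/BL6, and the methods name males of 11 weeks at surgery on chow, with the wire passed through the left carotid and the right one as control. It is not stated whether the day 0 vessels were uninjured sides of injured mice, and vessels with thrombosis had been removed. Each library came from frozen sections, up to 70 per sample, from which a laser cut the carotid with its outer elastic lamina and neointima. The neointima is the new tissue that grows inside an injured artery. How much of the adventitia, which lies outside that lamina, was cut along with it is not stated, nor how many mice made up a library, so p-values measure the spread between libraries.

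Fibroblasts of the adventitia make collagen, elastic fibre proteins and small proteoglycans. A subset that carries Pi16, Dpt, Cd34 and Ly6a, the gene of Sca-1, is known from many mouse tissues as a resting pool with progenitor properties, and it lies around vessels. After an arterial injury, fibroblasts can divide and take up a matrix-producing state, while leukocytes enter the wall. Several of the markers are also made by other cells: Cd34, Ly6a and Ly6c1 by endothelial cells, Ly6a and Ly6c1 by some leukocytes, and Gsn by smooth muscle.

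In the GRCm39 assembly with GENCODE annotation, the genes lie on 7 chromosomes. Dpt (1:164624187-164654544) and Cd34 (1:194621029-194647172) are on chromosome 1, Gsn is at 2:35145967-35197917, Clec3b at 9:122979925-122987055, Serpinf1 at 11:75299998-75322362, Scara5 at 14:65903844-66002275 and Pi16 at 17:29536654-29549567. Ly6a (15:74863840-74869880) and Ly6c1 (15:74915847-74920686) belong to the Ly6 gene cluster and lie 46.0 kb apart. Exons of 5 markers overlap exons of another gene on the opposite strand: Gm32652 for Dpt, Gm46603 for Pi16, Gm16897 for Cd34, Gm28068 for Ly6a, and Gm35337 and Smyd4 for Serpinf1. The use of strand in the counting is not stated, so reads of these partners cannot be told apart. Among the last 350 bases of the annotated transcripts, 19.5% of 75-base words of Ly6a also occur in Gm28068 or Ly6c1, and 19.9% of those of Ly6c1 occur in Ly6c2 or Ly6a, so counts of these genes can be split between near-identical copies. The other 7 markers shared none of these words with another gene.

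Promoter windows, from 250 bases before to 50 after the transcript start, were held for 6 of the 9 genes in a RefSeq table of the GRCm38.p6 assembly. They are shown for 5 genes that moved in different ways after injury: Dpt, Pi16 and Gsn, which fell by day 7, and Cd34 and Ly6c1, which did not. Capitals mark letters that match a TATA box (TATAAA) or a GC box (GGGCGG) on either strand, which do not overlap each other here. Each is written 5′ to 3′ in the direction of transcription.
Dpt promoter, chr1:164796413-164796712, plus strand: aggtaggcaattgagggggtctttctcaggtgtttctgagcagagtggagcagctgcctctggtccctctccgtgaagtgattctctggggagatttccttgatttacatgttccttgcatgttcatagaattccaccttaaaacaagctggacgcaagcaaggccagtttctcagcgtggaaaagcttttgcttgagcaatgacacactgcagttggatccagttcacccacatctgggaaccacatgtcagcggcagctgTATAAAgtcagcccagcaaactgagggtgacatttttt
Pi16 promoter, chr17:29318632-29318931, plus strand: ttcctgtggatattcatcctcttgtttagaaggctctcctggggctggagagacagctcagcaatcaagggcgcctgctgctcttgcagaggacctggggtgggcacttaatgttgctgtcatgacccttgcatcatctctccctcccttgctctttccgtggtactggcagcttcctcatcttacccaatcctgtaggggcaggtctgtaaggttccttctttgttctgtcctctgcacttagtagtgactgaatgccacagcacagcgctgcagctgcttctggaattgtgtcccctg
Gsn promoter 1, chr2:35256109-35256408, plus strand: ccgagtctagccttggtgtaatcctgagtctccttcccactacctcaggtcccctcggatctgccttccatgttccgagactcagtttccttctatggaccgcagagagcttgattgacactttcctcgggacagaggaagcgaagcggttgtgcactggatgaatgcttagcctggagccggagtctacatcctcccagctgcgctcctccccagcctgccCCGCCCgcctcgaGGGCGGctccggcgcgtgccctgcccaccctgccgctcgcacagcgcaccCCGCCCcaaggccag
Cd34 promoter, chr1:194938571-194938870, plus strand: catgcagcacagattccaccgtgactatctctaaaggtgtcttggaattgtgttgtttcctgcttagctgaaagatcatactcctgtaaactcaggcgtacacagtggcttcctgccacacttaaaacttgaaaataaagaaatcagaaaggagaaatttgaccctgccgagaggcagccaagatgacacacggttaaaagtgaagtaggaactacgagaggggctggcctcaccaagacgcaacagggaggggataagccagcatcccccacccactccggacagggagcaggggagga
Ly6c1 promoter 1, chr15:75048788-75049087, minus strand: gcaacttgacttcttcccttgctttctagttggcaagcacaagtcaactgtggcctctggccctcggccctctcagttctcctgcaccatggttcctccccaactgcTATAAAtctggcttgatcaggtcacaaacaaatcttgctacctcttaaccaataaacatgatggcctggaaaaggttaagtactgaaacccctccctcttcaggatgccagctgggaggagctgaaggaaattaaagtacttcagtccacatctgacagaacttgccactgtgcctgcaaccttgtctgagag

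The Gsn window shown holds 3 GC boxes, and its 2 other annotated starts hold 1 and 2. Dpt and the first Ly6c1 start have a TATAAA each, at position 13 after and 143 before the start, and the windows of Pi16, Cd34 and Serpinf1 hold neither motif. Of all 32851 promoters in the table, 35.7% hold a GC box and 13.6% a TATAAA. No window of the markers held the AP-1 motif TGANTCA (7.81% of all promoters) or a CArG box, the site of serum response factor (1.63%). These matches describe letters in a window and were not tested against the expression values.

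Levels are given as CPM, counts per 1000000 counts of a library after edgeR's TMM scaling, in the order of the replicate numbers. A change is called where the adjusted p of edgeR's quasi-likelihood test over all genes tested was under 0.05. Totals were 440675 to 878310 counts per library (median 659166), and 3 counts, taken as the limit that a count of 0 allows, correspond to 3.55 to 6.98 CPM. This limit covers counting error only. The 9 genes together held 0.223% of all counts. In these bulk samples, fewer cells of a type and less RNA per cell cannot be told apart.

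By day 7, 5 of the 9 markers fell from day 0 (Clec3b, Pi16, Gsn, Scara5 and Dpt) and 1 rose (Ly6a), where 8.53% of all genes tested fell and 11.3% rose. On day 14, 2 were lower than on day 0 (Gsn and Clec3b; 1.42% of all genes) and 1 was higher (Ly6a; 4.80%). On day 21, 3 were lower (Gsn, Clec3b and Scara5; 2.93%) and 3 higher (Ly6a, Ly6c1 and Cd34; 5.92%). On day 28, 0 of the 9 differed from day 0, against 1.34% of all genes. The unadjusted p was under 0.05 for 3 of them on day 28 (Cd34, Gsn and Serpinf1), and DESeq2 called 0. The share of all genes at this unadjusted threshold is not given here, so 1.34% is not its measure. Over the markers, the median log2 fold changes for days 7, 14, 21 and 28 were -1.18, -0.24, -0.79 and -0.58, beside 0.07, 0.05, 0.07 and -0.01 over all genes tested.

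**Figure D1:**
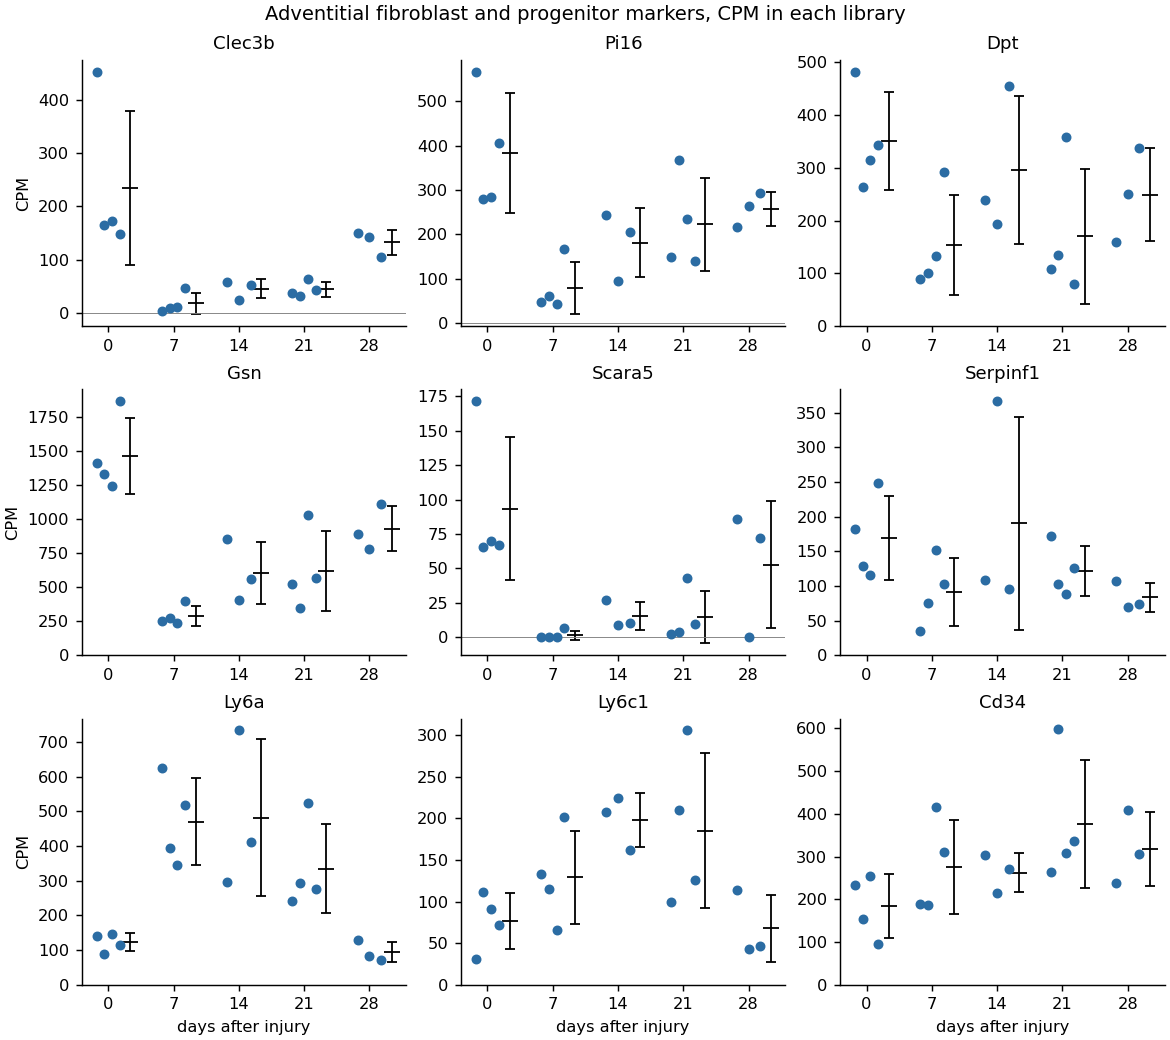
CPM of the 9 markers (vertical axes, linear) by day after injury (horizontal axes). Points are libraries in the order of their replicate numbers, and the bar beside them is the mean ± SD. Clec3b, Pi16, Gsn and Scara5 are lowest on day 7, whereas Ly6a lies between 241 and 734 CPM on days 7 to 21 and at 71.9 to 146 on days 0 and 28.

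Clec3b, Pi16 and Dpt fell by day 7, and Clec3b overlapped day 0 again on day 28. Clec3b encodes tetranectin, a C-type lectin that binds plasminogen. It was at 453, 165, 173 and 148 CPM on day 0 and at 3.56, 8.98, 9.97 and 46.8 CPM on day 7, where the first library held 2 reads. The groups did not overlap. The mean fell from 235 ± 146 (SD, n = 4) to 17.3 ± 19.9 CPM (SD, n = 4), a log2 fold change of -3.70 (SE 0.52, adjusted p = 1.17e-05) or 13.0-fold by the fit. Clec3b stayed below every day 0 library on day 14 (57.6, 24.7 and 52.2 CPM) and day 21 (37.9, 32.3, 64.1 and 41.9 CPM), with log2 fold changes of -2.37 (adjusted p = 0.00535) and -2.40 (0.00192). By day 28 it was at 149, 142 and 105 CPM, which overlaps day 0 (log2 fold change -0.82, adjusted p = 0.434). The rise from day 7 to day 28 was called, at 2.88 on the log2 scale (SE 0.53, adjusted p = 0.000687), with all 3 libraries above all 4 of day 7.

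Day 7 replicate 4 held the highest Clec3b, Pi16 and Scara5 of its day. Without it, the fall of Clec3b from day 0 to day 7 was -4.95 on the log2 scale and the rise to day 28 was 4.13, and days 14 and 21 were then also called above day 7 (adjusted p = 0.00771 and 0.00301). Without day 14 replicate 2, which was the lowest in Clec3b of its day and carried skeletal muscle transcripts, the day 14 difference lost its call (adjusted p = 0.0573).

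Pi16 encodes peptidase inhibitor 16, after which the resting adventitial pool is often named. Its libraries were at 566, 279, 283 and 405 CPM on day 0 and at 46.3, 61.1, 41.9 and 166 CPM on day 7. All day 7 libraries lay below all day 0 libraries, and the log2 fold change was -2.27 (SE 0.41, adjusted p = 0.000234), from 383 ± 135 to 78.9 ± 58.8 CPM (SD, n = 4 each). On day 14 they were at 243, 93.5 and 206 CPM, on day 21 at 148, 367, 234 and 139.6 and on day 28 at 215, 263 and 292. None of these days passed the test against day 0 (adjusted p = 0.153, 0.227 and 0.546), although all 3 day 14 libraries lay below all of day 0. Pi16 stood 1.48 above its day 7 level on the log2 scale by day 21 (adjusted p = 0.0226) and 1.69 above it by day 28 (0.00826). The day 21 call was lost when day 7 replicate 1, 2 or 3 or day 21 replicate 2 was left out (adjusted p = 0.0751 to 0.101). Without day 7 replicate 4 the values were -2.95 for day 7 against day 0, 2.16 for day 21 against day 7 and 2.37 for day 28 against day 7.

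Dpt encodes dermatopontin, a matrix protein that binds decorin and collagen. Its level was 264 to 482 CPM on day 0, 89.0 to 292 on day 7, 194 to 455 on day 14, 79.1 to 358 on day 21 and 159 to 337 on day 28. Every pair of days overlapped. The fall from 351 ± 93.4 to 154 ± 94.1 CPM by day 7 (log2 fold change -1.18, SE 0.41) passed the threshold narrowly (adjusted p = 0.0446) and did not pass it when 1 of 6 libraries was left out, namely day 0 replicate 1, 3 or 4 or day 7 replicate 1, 2 or 3 (adjusted p = 0.0615 to 0.13). Days 14, 21 and 28 differed from day 0 by -0.24, -1.04 and -0.49, which were not called (adjusted p = 0.873, 0.122 and 0.647). Without day 21 replicate 3, which held 358 CPM beside 79.1 to 135 in the others, day 21 passed (adjusted p = 0.00892).

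Serpinf1 encodes PEDF, a secreted serpin known to restrain the growth of new vessels. It did not pass the test in any comparison, although the day 7 difference of -0.89 from day 0 (adjusted p = 0.14) passed without day 7 replicate 3 (0.0483) and with no filter on low counts (0.0452). It ranged from 116 to 249 CPM on day 0, from 35.6 to 152 on day 7, from 95.2 to 367 on day 14, from 88.8 to 172 on day 21 and from 69.5 to 108 on day 28. The mean of day 14 rested on replicate 2, at 367 CPM beside 109 and 95.2, and without it the log2 difference from day 0 went from 0.16 to -0.74. On day 28 all 3 libraries lay below all 4 of day 0, with a log2 difference of -1.01 (95% interval -1.93 to -0.09, adjusted p = 0.281).

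Gsn encodes gelsolin, which severs and caps actin filaments and also exists in a secreted form. Of the markers that fell by day 7, it had the smallest standard error. It was at 1411, 1333, 1245 and 1873 CPM on day 0 and at 253, 271, 241 and 400.4 CPM on day 7, with no overlap. The mean was 1465 ± 279.9 CPM before and 291 ± 73.7 on day 7 (SD, n = 4 each), a 5.02-fold fall (log2 fold change -2.33, SE 0.29, adjusted p = 3.47e-06). Day 14 (856, 409 and 558 CPM) and day 21 (525, 345, 1034 and 568 CPM) still lay below all day 0 libraries, by -1.27 (adjusted p = 0.0129) and -1.24 (0.00635) on the log2 scale. On day 28 the 3 libraries were at 895, 786 and 1111 CPM, again below every day 0 library, but the difference of -0.66 was not called (adjusted p = 0.314). Gsn was above day 7 on day 21 by 1.08 (adjusted p = 0.0188) and on day 28 by 1.67 (adjusted p = 0.000592). The day 14 call against day 0 was lost without day 14 replicate 2 (adjusted p = 0.124) or 3 (0.0582), and that of day 21 against day 7 without day 7 replicate 1, 2 or 3 or day 21 replicate 3 (0.0525 to 0.121).

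Smooth muscle also makes gelsolin, and contractile genes fell on the same days. All 12 tested genes of a list of 13 contractile smooth muscle genes fell by day 7, beside 8.53% of all genes tested. Among them were Mylk (-3.12 on the log2 scale, adjusted p = 1.68e-07), Acta2 (-3.41), Tpm2 (-2.87) and Myl9 (-3.60), which encode the kinase, actin, tropomyosin and light chain of the contractile apparatus. On days 14, 21 and 28, 7, 9 and 1 of the 12 were below day 0 (1.42%, 2.93% and, in either direction, 1.34% of all genes). Their summed level was 45818 to 51740 CPM on day 0, 2354 to 9511 on day 7, 10491 to 31866 on day 14, 11806 to 28788 on day 21 and 30747 to 38288 on day 28. The part of smooth muscle in the level of Gsn was not tested.

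Scara5, a scavenger receptor known to take up ferritin, was detected in 1 of 4 libraries on day 7. It was at 171, 65.7, 70.1 and 66.9 CPM on day 0. On day 7 replicates 1, 2 and 3 held 0 reads, which allows up to 5.34, 5.39 and 5.98 CPM, and replicate 4 held 4 reads, or 6.46 CPM. The fitted log2 fold change was -5.58 (SE 1.10, adjusted p = 0.000607), from 93.5 ± 51.9 to 1.61 ± 3.23 CPM, and it rests on these 4 reads. Without day 7 replicate 4 the fit gave -8.90, a value that depends on the prior count because no read is left on day 7, and against 3 reads per library the mean of day 0 was at least 16.8-fold higher. The later days were uneven, at 27.2, 8.82 and 10.4 CPM on day 14 and 2.37, 4.04, 42.8 and 9.31 on day 21. Day 28 split into 86.2 and 71.9 CPM in replicates 1 and 3 and 0 reads in replicate 2. Day 14 was not called against day 0 (log2 fold change -2.58, adjusted p = 0.11), but it was with no filter (0.000696), with the 2 days alone (0.00772) and without day 28 replicate 2 (0.0345). Day 21 was (-2.66, adjusted p = 0.0484), and day 28 was not (-0.82, adjusted p = 0.701). The rise from day 7 to day 28 was called (4.77, SE 1.14, adjusted p = 0.00595), although replicate 2 of day 28 held no read. Without day 7 replicate 4 the fitted rise was 8.08, again with no read on day 7, and the mean of day 28 was at least 9.46-fold above 3 reads per library. The call on day 21 was lost in 8 of 18 fits that left out a library, each of them 1 of the 4 day 0 libraries, day 14 replicate 3 or day 21 replicate 1, 2 or 4 (adjusted p = 0.0543 to 0.149). DESeq2 did not make it either (0.14). Without day 21 replicate 3 the log2 fold change was -4.26 (adjusted p = 0.00935).

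**Figure D2:**
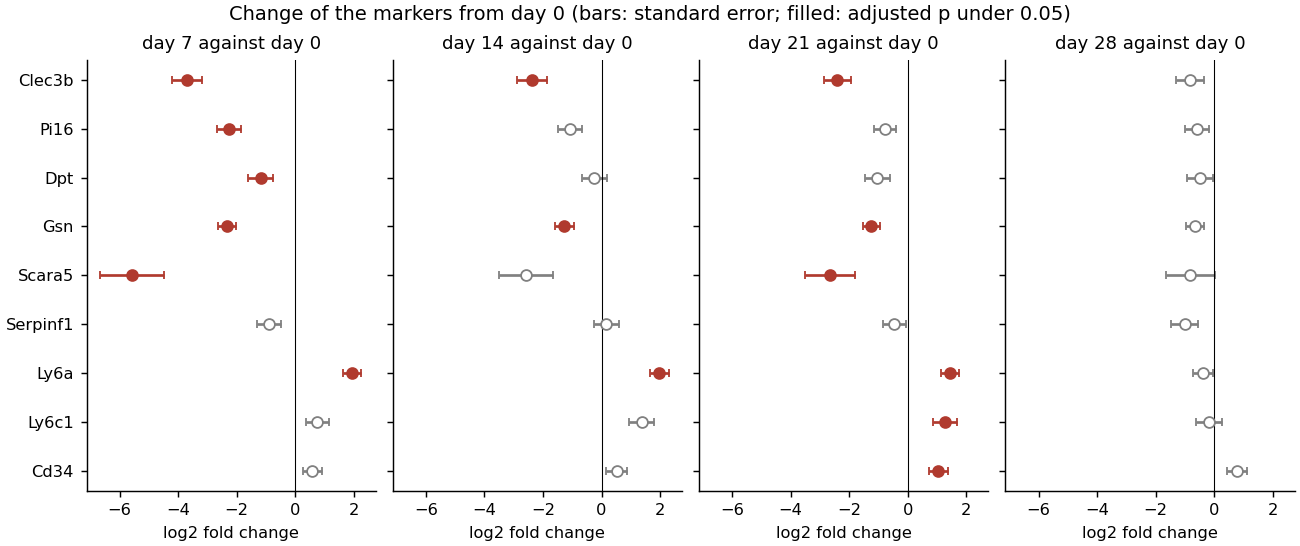
Log2 fold change of each marker from day 0 (horizontal axes) on days 7, 14, 21 and 28, with the standard error; filled red points had an adjusted p under 0.05 and open grey points did not. The falling markers reach -5.58 (Scara5) on day 7, Ly6a stands at 1.94, 1.97 and 1.45 on days 7, 14 and 21, and no point is filled on day 28.

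Ly6a rose by day 7, whereas Ly6c1 and Cd34 were called higher on day 21 alone. Ly6a encodes Sca-1, a GPI-anchored protein of the Ly6 family by which mouse stem and progenitor cells are sorted. Its libraries were at 140.0, 89.7, 146 and 114 CPM on day 0 and at 625, 394, 345 and 518 CPM on day 7. They were at 298, 734 and 412 CPM on day 14, at 241, 295, 525 and 277 on day 21 and at 128, 82.7 and 71.9 on day 28. Every library of days 7, 14 and 21 lay above every library of days 0 and 28. The log2 fold change from day 0 was 1.94 on day 7 (SE 0.31, adjusted p = 6.08e-05), 1.97 on day 14 (SE 0.32, adjusted p = 0.000369) and 1.45 on day 21 (SE 0.31, adjusted p = 0.00351), from a mean of 122 ± 25.9 to 470.4 ± 126 (SD, n = 4 each), 481 ± 226 (SD, n = 3) and 334 ± 129 CPM (SD, n = 4). These calls held in all 18 fits that left out a library. In the order of the mean levels (days 14, 7, 21, 0 and 28), neighbours among the first 3 were not called different, with a difference of 0.03 between days 14 and 7 (95% interval -0.63 to 0.69) and -0.49 between days 21 and 7 (-1.11 to 0.12). Day 28 was below day 7 by 2.32 (adjusted p = 0.000114) and below day 21 by 1.82 (adjusted p = 0.00956), and its difference of -0.37 from day 0 was not called (adjusted p = 0.651). The call of day 28 against day 21 was lost without day 28 replicate 2 (adjusted p = 0.0881) or 3 (0.0768).

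Ly6c1, a neighbour of Ly6a in the gene cluster, encodes a GPI-anchored protein found on endothelial cells and on this fibroblast pool. It was at 31.3 to 111 CPM on day 0, 65.8 to 202 on day 7, 162 to 224 on day 14, 99.4 to 306 on day 21 and 43.0 to 113 on day 28. Its log2 fold changes from day 0 were 0.75, 1.36 and 1.27 (SE 0.40) for days 7, 14 and 21, with adjusted p of 0.216, 0.0545 and 0.0476, so that day 21 alone passed. Day 14 had no library below any of day 0, and it passed with DESeq2 (adjusted p = 0.0339) and under both other scalings (0.0462 and 0.0396). The day 21 call was lost in 11 of 18 fits that left out a library, with adjusted p up to 0.213 (without day 21 replicate 3), with the replicate number as a block (0.0686) and with the label number as a block (log2 fold change 0.83, adjusted p = 0.158). The label number fit held only the 3 pairs of day 0 and day 21 libraries that share a number. Day 0 replicate 1 (31.3 CPM) and day 21 replicate 2 (210 CPM) were therefore not in it.

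Cd34, a sialomucin of endothelial cells, adventitial fibroblasts and blood progenitors, had its highest mean on day 21. It was at 94.5 to 255 CPM on day 0, 187 to 417 on day 7, 214 to 304 on day 14, 265 to 597 on day 21 and 237 to 408 on day 28. The log2 fold changes from day 0 were 0.58, 0.51, 1.03 and 0.78, and the third alone was called (SE 0.32, adjusted p = 0.0452; 0.239, 0.531 and 0.276 for the others). All 4 day 21 libraries lay above all 4 of day 0, from 184 ± 73.9 to 377 ± 149.8 CPM (SD, n = 4 each). The call was lost in 9 of 18 fits that left out a library, with adjusted p up to 0.232 (without day 21 replicate 2, at 597 CPM), and with the replicate number as a block (0.0568).

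Between the later days, 2 of 9 markers were higher on day 21 than on day 7 (Pi16 and Gsn), beside 4.03% of all genes tested. On day 28, 4 were higher than on day 7 (Pi16, Gsn, Clec3b and Scara5; 6.40%) and 1 was lower (Ly6a; 8.05%). From day 7 to day 14, 0 were called (1.66% of all genes in either direction), and DESeq2 called Gsn. An unadjusted p under 0.05 was found there for 6, all with higher values on day 14 (Dpt, Pi16, Gsn, Clec3b, Serpinf1 and Scara5). The share of all genes at that unadjusted threshold is not given here, so 1.66% is not its measure. From day 21 to day 28, Ly6a alone fell (0.572% of all genes). These comparisons share libraries with those against day 0.

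Genes of endothelial cells and leukocytes, which can also make Ly6a, Ly6c1 or Cd34, changed after injury too. Of 16 endothelial genes, 8 rose by day 7, beside 11.3% of all genes tested. Examples were Cldn5 (2.64 on the log2 scale, adjusted p = 0.000317), a tight junction protein, and Cdh5 (1.86, adjusted p = 0.00134), the cadherin of endothelial junctions. Kdr, the VEGF receptor, held 1 read in all day 0 libraries together and 6 to 32 in each of day 7 (adjusted p = 0.00067), and Robo4 rose too (adjusted p = 0.0024). Vwf, the von Willebrand factor gene, fell (-2.61, adjusted p = 0.00107), and Pecam1 was not called (0.31, adjusted p = 0.596). The endothelial sum was 963 to 1628 CPM on day 0, 1150.3 to 3387 on day 7, 1581 to 1675 on day 14, 1281 to 2464 on day 21 and 1350.1 to 1611 on day 28, so days 0 and 7 overlapped. On day 14, 4 of the 16 were above day 0 (Kdr, Cldn5, Erg and Robo4; 4.80% of all genes), and on day 21 also Flt1 (5.92%). On day 28 edgeR called 0 of the 16 (1.34% of all genes in either direction). An unadjusted p under 0.05 was found for 3 (Cldn5, Erg and Robo4), a threshold at which the share of all genes is not given. All 15 leukocyte genes rose by days 7, 14 and 21 (11.3%, 4.80% and 5.92% of all genes). On day 28, 6 of the 15 were still higher (1.34% of all genes in either direction). The leukocyte sum was 139.9 to 619 CPM on day 0, 6375 to 8794 on day 7, 1676 to 4138 on day 14, 2506 to 4012 on day 21 and 1037 to 1411 on day 28. Aif1, Laptm5, Mpeg1 and Coro1a, which macrophages and other leukocytes make, had the smallest p on day 7. The part of endothelial cells and leukocytes in the levels of Ly6a, Ly6c1 and Cd34 was not tested.

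Of the other genes of the Ly6 family, Ly6e was called higher on the same 3 days as Ly6a, and Ly6c2 had reads on days 7, 14 and 21. Of 19 family members in the table, 15 had a count and 5 were tested. Ly6e, which many cell types express, was at 89.3 to 159 CPM on day 0, 365 to 429 on day 7, 198 to 535 on day 14, 257 to 471 on day 21 and 66.1 to 109 on day 28, with log2 fold changes from day 0 of 1.68 (adjusted p = 0.000222), 1.37 (0.00748), 1.38 (0.00409) and -0.42 (0.588). Ly6c2, the form that inflammatory monocytes carry, held 0 reads on days 0 and 28. It was at 73.0, 30.5, 45.8 and 0 CPM on day 7 and 9.60, 77.6 and 15.7 on day 14, which is at least 9.08-fold and 8.33-fold above the level of 3 reads per library on day 0. Without day 14 replicate 2 the day 14 limit was 3.07-fold. Its reads were 17 to 41 in 3 day 7 libraries, where Ly6c1 held 33 to 75, so a share of the counts of the one can belong to the other. Lynx1, a Ly6 protein that binds acetylcholine receptors, fell by day 7 (-2.27, adjusted p = 0.00188) and was below day 0 on day 21 (-1.71, adjusted p = 0.0263). The 10 genes with a count that were not tested (Gpihbp1, Ly6d, Ly6g, Ly6g5b, Ly6g6c, Ly6g6d, Ly6i, Ly6k, Ly6m and Slurp1) held 1 to 22 reads over all libraries.

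A wider list of 40 adventitial fibroblast genes, all in the table and 38 of them tested, was read beside the 9 markers. By day 7, 22 of the 38 fell (8.53% of all genes tested) and 3 rose (11.3%). The smallest p among those that fell belonged to Ogn (-3.12 on the log2 scale, SE 0.30, adjusted p = 1.16e-07), the proteoglycan osteoglycin, Ccn3 (-3.92, adjusted p = 2.45e-05), a matricellular protein, Entpd2 (-3.14), which breaks down extracellular ATP, and Efhd1 (-3.63), a calcium-binding protein. Ogn went from 698 to 917 CPM on day 0 to 68.3 to 140.5 on day 7. The 3 that rose were Procr, the protein C receptor (2.95, SE 0.43, adjusted p = 1.83e-05), Lum, the proteoglycan lumican (2.24, SE 0.44, adjusted p = 0.000558), and Fbn1, fibrillin of the elastic fibre (0.74, adjusted p = 0.0277). Procr was at 857 CPM in day 7 replicate 3, the library with the highest endothelial sum of its day, and at 113 to 239 in the others. The part of other cell types in the levels of the listed genes was not tested. The median over the 38 was -1.21, beside -1.18 over the 9 markers and 0.07 over all genes tested. Pdgfra and Dcn, by which fibroblasts are commonly recognised, were at 27.4 and 389 CPM on day 0 and were not called on day 7 (adjusted p = 0.466 and 0.38).

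Later, fewer of the 38 were called against day 0, but their median stayed below 0. It was -0.37, -0.33 and -0.62 on days 14, 21 and 28, beside 0.05, 0.07 and -0.01 over all genes tested. On day 14, 3 were higher (Lum, Fbn1 and Cd248, which encodes endosialin), beside 4.80% of all genes. The 3 that were lower were Ogn, Sema3c and Pcolce2 (1.42%). On day 21 Lum, Fbn1 and Cd248 were again higher (5.92%), and 5 were lower (Fbln1, Sema3c, Smoc2, Osr1 and Axl), beside 2.93% of all genes. On day 28 Lum alone was called, as higher (2.23, adjusted p = 0.0133), beside 1.34% of all genes in either direction. Lum itself stood at 56.2 to 182 CPM on day 0, 87.7 to 918 on day 7, 904 to 2076 on day 14, 1395 to 2322 on day 21 and 442 to 620.2 on day 28. Its libraries of days 14, 21 and 28 all lay above those of day 0. Against day 7, 10 of the 38 were higher on day 28 (6.40% of all genes), Ogn (3.07), Ccn3 (3.52) and Efhd1 (2.95) among them. Procr and Fbn1, 2 of the 38, were lower (8.05% of all genes). Summed over the list, the level was 8913 to 10148 CPM on day 0, 3441 to 6006 on day 7, 8694 to 10322 on day 14, 7364 to 12223 on day 21 and 7497 to 8370.3 on day 28.

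**Figure D3:**
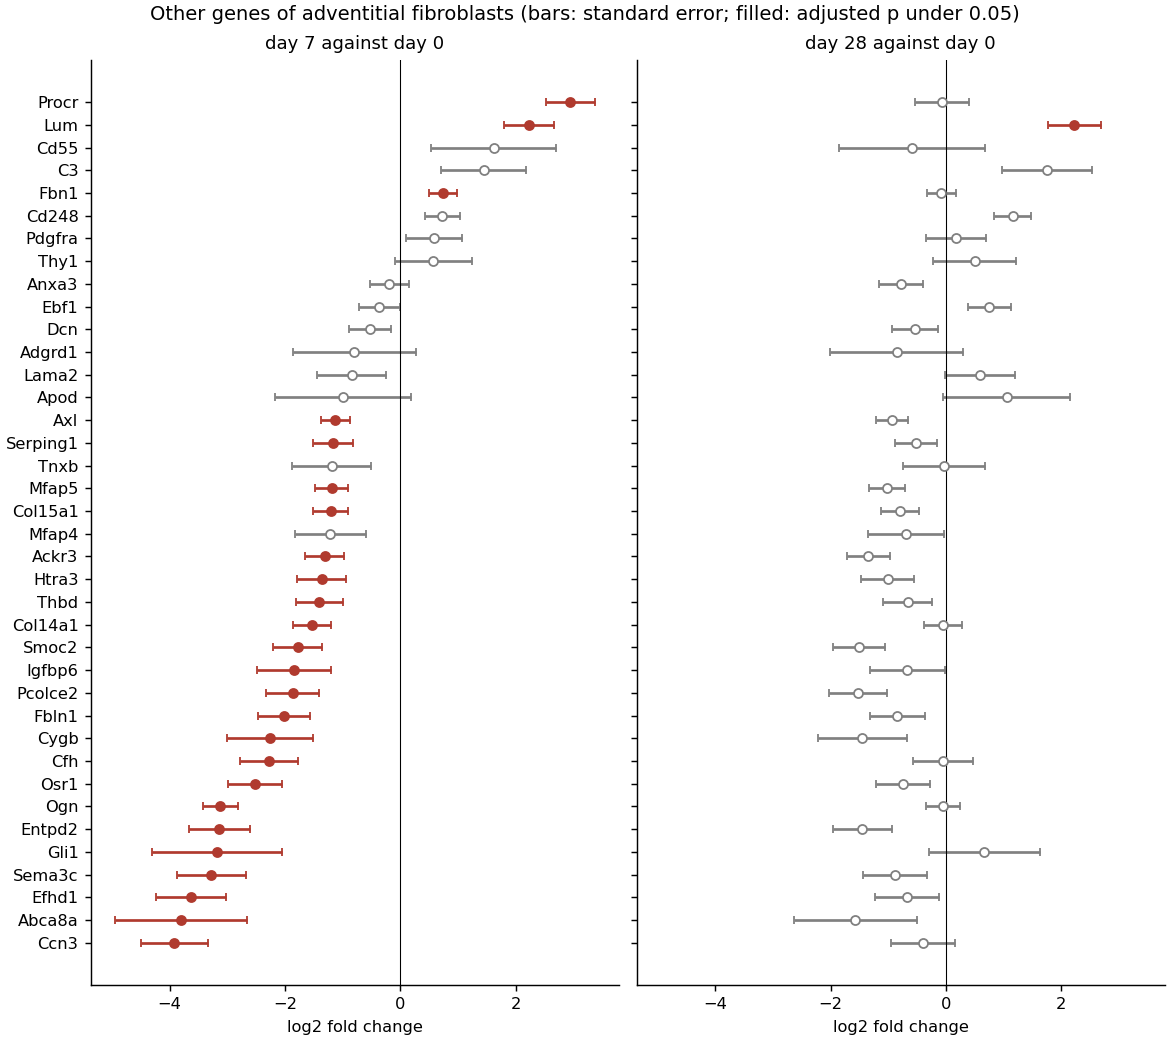
Log2 fold change from day 0 (horizontal axes) of the 38 tested genes of the wider adventitial fibroblast list on day 7 (left) and day 28 (right), ordered by the day 7 value, with the standard error; filled red points had an adjusted p under 0.05. On day 7, 22 are filled below 0 and 3 above, and on day 28 Lum alone is filled; Gli1 and Apod held at most 3 reads in any day 7 library, so their fitted value there depends on the prior count.

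Most tested genes of activated, matrix-producing fibroblasts rose in the same interval. Of 15 tested, 10 rose by day 7, beside 11.3% of all genes tested, and 0 were called lower. Among those that rose were Col8a1, a short-chain collagen (6.30 on the log2 scale, adjusted p = 8.97e-08), Ltbp2 (2.65), Timp1 (4.66), an inhibitor of matrix proteases, and Tnc, tenascin. Postn, the periostin gene, went the other way without a call. It was at 997 to 1438 CPM on day 0 and 701 to 876 on day 7, without overlap. Its mean was 1251 CPM on day 14 and 1177 on day 21, beside 1258 on day 0. On days 14 and 21, 9 of the 15 were above day 0 (4.80% and 5.92% of all genes). On day 28, 4 of the 15 were (Tnc, Col8a1, Ltbp2 and Comp; 1.34% of all genes in either direction). The summed level was 2175 to 2900.2 CPM on day 0, 5522 to 7226 on day 7, 4759 to 9223 on day 14, 4754 to 5582 on day 21 and 2664 to 3220.0 on day 28. Smooth muscle cells and other cells can also express these genes after injury, and the source of the reads was not measured.

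**Figure D4:**
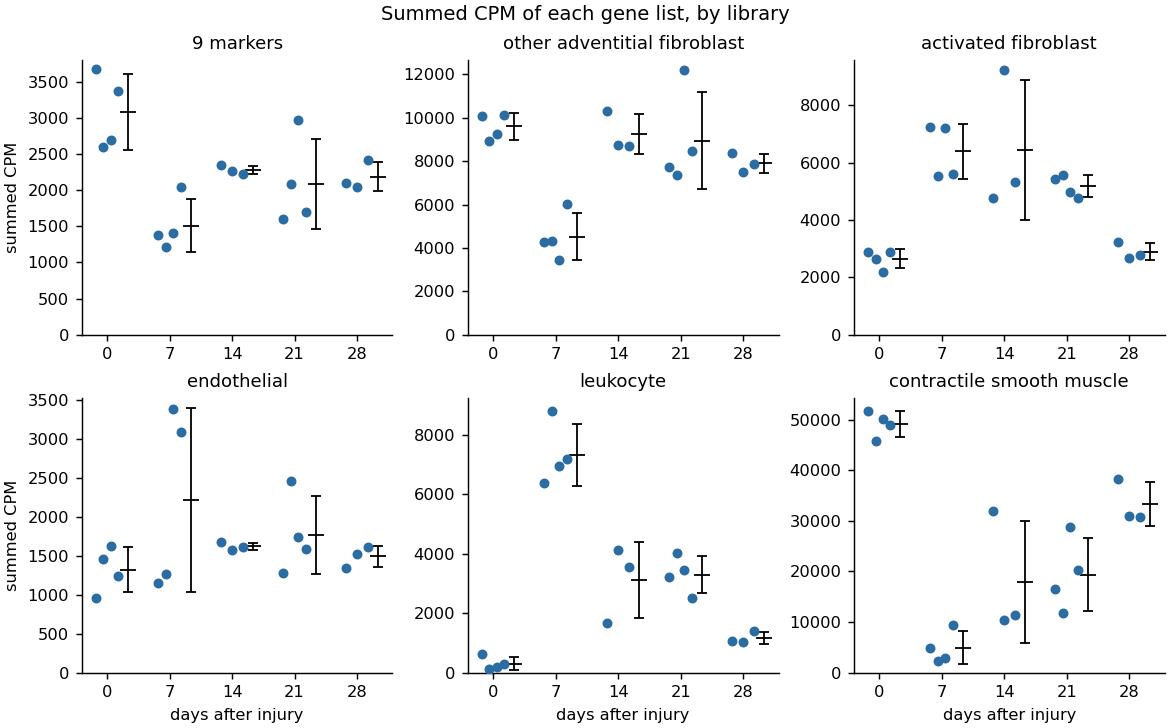
Summed CPM of each gene list (vertical axes, linear from 0) by day after injury, with 1 point per library and the mean ± SD beside it. The 9 markers sum to 2591 to 3670.1 CPM on day 0 and 1213 to 2045 on day 7, without overlap, while on day 7 the activated fibroblast list is at 5522 to 7226 and the leukocyte list at 6375 to 8794 CPM.

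Some libraries stood apart in the markers. Day 7 replicate 4 was the highest of its day in 6 of the 9, and it also had the highest contractile sum of its day (9511 CPM). Day 21 replicate 3 was likewise the highest in 6. Leaving out day 7 replicate 4 together with day 0 replicate 1, the highest of day 0 in 4 markers, kept all 6 calls of day 7 against day 0. Day 14 replicate 2 and day 21 replicate 1 carried skeletal muscle transcripts, 501 and 382 CPM over 9 genes beside 0 to 122 in the other 16 libraries, and day 14 replicate 2 was the lowest of its day in 6 markers. Without both, 1 marker (Ly6a) was called on day 14 in place of 3 and 4 on day 21 in place of 6. The log2 fold changes of the calls lost were then -1.08 for Gsn and -2.12 for Clec3b on day 14, in place of -1.27 and -2.37, and 1.14 for Cd34 and -2.28 for Scara5 on day 21, in place of 1.03 and -2.66. Calls over all genes fell in that fit too, from 641 to 215 on day 14 and from 912 to 570 on day 21. Of fat cells, Adipoq held at most 5 reads in any library and Plin1 at most 2, while Cfd, the adipsin gene, held 0 on days 0 and 7 and reached 141 CPM on day 21 and 102 on day 28. Fabp4, which endothelial cells also make, fell by day 7 (-1.44, adjusted p = 0.00331).

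Likeness was measured as the root mean square distance between log2 CPM values centred on each gene's mean, over the 18 libraries, where 0 is an identical course. Cd34 was nearest to Pear1 (0.252 log2 units, beside a median of 0.944 to all genes), a receptor of endothelial cells and platelets, then to Slx1b and Adam15. Gsn was nearest to Cpe (0.300), Tpm1 (0.302) and Rras (0.307), with a median of 1.17 to all genes, and Tpm1 encodes a tropomyosin. Clec3b was nearest to Xirp1 (0.574), Jph2 and the smooth muscle gene Tagln (0.607), beside a median of 1.72. Pi16 was nearest to Kank2 (0.431), Cspg4 and Ccdc107, Dpt to Stim1 (0.486), Bri3 and Rraga, and Serpinf1 to Fyttd1 (0.444), Rnpepl1 and Josd2. Ly6a was nearest to Sema6b (0.484), Vmp1 and Emp1, Ly6c1 to Fbxo38 (0.510), Ipo8 and Nup160, and Scara5, with the widest distance, to 1190005I06Rik (0.967), Jph2 and Popdc2. None of these nearest genes is another of the 9. Within the 9, Pi16 and Gsn were 0.572 apart, Ly6a and Ly6c1 0.704 and Ly6a and Clec3b 2.38.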

How the data were processed

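MACE libraries of laser-dissected carotid sections were sorted into days by their labels. Per the methods, PCR duplicates had been removed by molecular identifiers and reads trimmed. The authors ran Salmon 1.9.0 on mm39, and deposited the estimated counts of each gene, given as whole numbers, which were used unchanged. The annotation release and the use of strand are not given in the sources used here. A table of values that the authors normalised with DESeq2 was not used.

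The fit used edgeR 4.0.16 under R 4.3.3, with filterByExpr by day, TMM, 1 quasi-likelihood fit over 18 libraries with day as the only term, and Benjamini-Hochberg adjustment over 10312 genes at 0.05. The steps were tested on simulated data. Alternatives were DESeq2 1.42.0, other scalings, no filter, the 2 days alone, blocks, and each library left out. Totals were 440675 to 878310 counts, and libraries of one day correlated at 0.7054 to 0.8963 (Pearson, log2 CPM, 24 pairs). Promoters came from RefSeq (GRCm38.p6) and positions from GENCODE (GRCm39).

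The genes named are all 9 markers, from each further list at most 4 genes per direction with the smallest p among those called on day 7 against day 0, the Ly6 genes with a count, and the 3 genes nearest to each marker. Genes named for other days, and Pdgfra, Dcn, Postn, Pecam1, Gli1, Apod, Adipoq, Plin1, Cfd, Car3, Mbp and Mylpf, were chosen after their values were seen. The members and lists were chosen with earlier results of these data known.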

Additional observations from a re-analysis of the deposited data

Results flagged for a closer look

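In 27 groups of 4 libraries (9 markers on days 0, 7 and 21), the gap of the most distant library to its neighbour was divided by the whole range of the group. Ratios above the 95% critical value of Dixon's test are given, and chance gives such a ratio in about 1 of 20 groups. Day 7 replicate 4 exceeded it in Pi16, with a ratio of 0.845 (166 CPM beside 41.9 to 61.1), and in Clec3b, with 0.852 (46.8 CPM beside 3.56 to 9.97). Its ratio of 1 for Scara5 (4 reads beside 0) is fixed by the zeros of the other 3 libraries and says nothing about distance. Day 0 replicate 1 exceeded it in 2, with 0.919 for Clec3b (453 CPM beside 148 to 173) and 0.959 for Scara5 (171 CPM beside 65.7 to 70.1). Groups of 3 libraries were not examined in this way.

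The change from day 0 differed between days in 8 direct comparisons of 2 days that passed an adjusted p under 0.05 in edgeR. Pi16 and Gsn were higher on day 21 than on day 7, by 1.48 and 1.08 on the log2 scale, beside 4.03% of all genes tested. From day 7 to day 14, 0 of the 9 were called (1.66% in either direction). From day 7 to day 28 the difference was 1.69 for Pi16, 1.67 for Gsn, 2.88 for Clec3b, 4.77 for Scara5 (6.40% higher) and -2.32 for Ly6a (8.05% lower). Ly6a was also lower on day 28 than on day 21, at -1.82 (0.572% of all genes). The 2 changes from day 0 that each of these compares share their day 0 libraries.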

How the results depend on the processing

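For day 7 against day 0, 6 markers were called, 7 with no filter and 5 to 6 with a library left out. For day 28 against day 7 it was 5 (5 to 6), and 4 with the 2 days alone, where Scara5 did not pass the filter on low counts and was not tested. For day 28 against day 0 it was 0 in every fit (0 to 0). Other counts moved by over 1.5 times. For day 14 against day 0 (3 called), no filter gave 6, the 2 days alone 5, and leaving out both libraries with skeletal muscle reads 1. Single libraries gave 1 to 5, with 1 without day 14 replicate 2 and 5 without day 28 replicate 2. For day 21 against day 0 (6 called), single libraries gave 3 to 6, with 3 without day 0 replicate 4, day 14 replicate 3 or day 21 replicate 2 or 4. For day 14 against day 7 (0 called), DESeq2 gave 1, no filter 3, leaving out both skeletal muscle libraries 1, and leaving out day 7 replicate 4 with day 0 replicate 1 gave 3. Single libraries gave 0 to 3, with 3 without day 7 replicate 4 and 1 without day 14 replicate 2 or day 21 replicate 2 or 3. For day 21 against day 7 (2 called), no filter gave 4 and single libraries 0 to 3, with 0 without day 7 replicate 1, 2 or 3 and 1 without day 21 replicate 2 or 3. For day 28 against day 21 (1 called), DESeq2 gave 2, no filter 3, the 2 days alone 2, and leaving out day 7 replicate 4 with day 0 replicate 1 gave 2. Single libraries gave 0 to 2, with 0 without day 28 replicate 2 or 3 and 2 without day 7 replicate 4 or day 28 replicate 1. The fits without both skeletal muscle libraries and without day 7 replicate 4 and day 0 replicate 1 were added after seeing the data. Fits that leave out libraries have fewer samples, and apart from this and the filtering of Scara5 the cause was not tested.

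Log2 differences that changed sign were uncalled. With single libraries left out, Serpinf1 on day 14 against day 0 ran from -0.74 to 0.49, and it was -0.76 without both muscle libraries. Ly6c1 on day 28 against day 0 ran from -0.76 to 0.068. On day 14 against day 7, Ly6a ran from -0.40 to 0.30 and was -0.40 without both muscle libraries. Cd34 there ran from -0.19 to 0.21, and was 0.076 without those libraries and 0.026 without day 7 replicate 4 and day 0 replicate 1. Dpt on day 21 against day 7 ran from -0.50 to 0.68. On day 28 against day 7, Serpinf1 ran from -0.34 to 0.25 (0.0047 without day 7 replicate 4 and day 0 replicate 1) and Cd34 from -0.029 to 0.51. Cd34 on day 28 against day 21 ran from -0.48 to 0.088.

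Replicate numbers did not pair libraries across days: between those that shared a number, residuals correlated at a median of -0.0057 over 33 pairs (-0.132 to 0.205). The 3 pairs of day 0 and day 21 libraries with the same number in their descriptions were at -0.00669 to 0.0554. With the replicate number as a block, 4 markers were called on day 21 against day 0 in place of 6, and the count was the same in the other 7 comparisons. With the label number as a block, 5 were called, in a fit of only the 3 pairs of day 0 and day 21 libraries that share a number. Over all genes, day 28 against day 0 gave 138 calls, but 331 with DESeq2, 363 with no filter, 32 with the 2 days alone, 72 with the replicate block and 72 without both muscle libraries. Day 14 against day 7 gave 171, but 333 with DESeq2, 392 with no filter, 83 with the 2 days alone and 352 without day 7 replicate 4 and day 0 replicate 1. Day 28 against day 21 gave 70 (11 higher), but 301 with DESeq2, 373 with no filter, 40 without both muscle libraries and 142 without day 7 replicate 4 and day 0 replicate 1, and scaling by library totals gave 88 (34 higher). Without both muscle libraries, day 14 against day 0 gave 215 in place of 641, day 21 against day 0 570 in place of 912 and day 21 against day 7 461 in place of 749. With the 2 days alone, day 28 against day 7 gave 922 in place of 1490. With single libraries left out, day 28 against day 0 gave 63 (without day 0 replicate 3 or day 28 replicate 2) to 480 (without day 28 replicate 1), day 14 against day 7 26 (day 14 replicate 1) to 318 (day 7 replicate 4), day 28 against day 21 15 (day 28 replicate 2) to 410 (day 28 replicate 1), and day 14 against day 0 233 (day 14 replicate 2) to 762.

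No scaling reversed a marker against day 0. Scaling moved the median of all genes on day 7 from 0.0705 to 0.101 (relative log expression) and 0.118 (library totals). The planned permutation test of markers under the filter had no marker to test. Depth limits low values: 3 reads are 3.55 to 6.98 CPM.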

Other observations

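Fat cell genes were called higher on days 21 and 28, and a nerve sheath gene on days 7, 14 and 21. Of 10 adipocyte genes 3 were tested, and Car3 and Cfd were called above day 0 on days 21 and 28 by edgeR, while Fabp4 was the one called on day 7. Cfd, with 0 reads on day 0, stood at 69.8, 54.5, 141 and 4.65 CPM on day 21 (adjusted p = 0.00287) and at 93.3, 0 and 102 CPM on day 28 (0.0164). Day 28 replicate 2, the library without Scara5 reads, also held 0 reads of Cfd and Car3. Of 9 Schwann cell genes 5 were tested. Mbp, the myelin basic protein gene, held 0 reads on day 0 and was called on days 7, 14 and 21 (adjusted p = 0.00158, 0.0448 and 0.00178). Of 9 skeletal muscle genes 3 were tested, and Mylpf was called on day 14 alone (adjusted p = 0.0446), where replicate 2 held 72 of its 73 reads.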
